A study of Mus musculus with 2 samples.

Results

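The genes described here encode the proteins of the sarcomere, the contractile unit of striated muscle. They were chosen by name, as 50 gene symbols of actins, myosins, troponins, tropomyosins, titin, nebulin and their partners, and every RefSeq entry of the activity table with one of these symbols was taken, whether it was active or not. The table held 63 such entries of 49 genes, out of 24165 entries of 20128 gene symbols. Tnni2, fast skeletal troponin I, had no entry. The rule used names and no activity value.

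Gene activity was measured in C2C12 myoblasts, an established mouse line of muscle precursor cells that proliferate in serum and can fuse into contractile myotubes. The cells had no treatment and were grown to 80% confluency on 10 cm plates, in high-glucose DMEM with fetal bovine serum, and 4 plates went into each nuclei isolation. The technique was global run-on sequencing (GRO-seq), in which engaged RNA polymerases elongate in isolated nuclei on bromouridine, and the RNA they label is pulled down and read. The authors pooled 2 replicate libraries and gave each entry 1 value, its activity in RPKmM, which is the read density on the sense strand of the gene body, counted per kilobase of mappable sequence and scaled to the total number of reads, or the word Inactive where the density was not above that of gene deserts. No value per library was in the table, so there is no replicate error behind any number below, and no difference was tested.

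In a sarcomere, thick filaments of myosin slide along thin filaments of actin. Tropomyosin and the troponin complex lie on the thin filament and let calcium switch contraction on, titin spans from the Z-disc to the M-band, and the Z-disc anchors thin filaments of neighbouring sarcomeres. Most of these proteins come as isoforms of separate genes for fast, slow, cardiac and developing muscle, and myoblasts are known to switch most of them on only when they leave the cell cycle and differentiate.

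The identity of the cells was checked against marker genes. All 11 skeletal myoblast markers were active, where 68.7% of all gene symbols were, led by Des (desmin) at 72.45 RPKmM, Chrna1 at 15.62 and Itga7 at 13.29, with the myogenic regulators Myf5 at 5.03 and Myod1 at 2.39. The lowest of them were Pax7 at 0.55 and Pax3, which was marked active but listed at 0. Of the differentiation markers, 9 genes had an entry and all 9 were active, among them Mef2d at 4.57, Myog (myogenin) at 2.39, Atp2a1 at 1.31 and Ckm (muscle creatine kinase) at 0.2, down to Cav3 at 0.04 and Cdkn1c, listed at 0. How far their activity goes with that of the sarcomere genes was not tested, since there is only 1 pooled value. Of the cardiomyocyte markers, Nkx2-5, Tbx5, Hand2, Ryr2 and Pln were Inactive, and Gata4 had 1.23. Of 5 blood and endothelial genes, 2 were active and none was above 0.01. The fibroblast list was mixed, with Col1a2 at 28.94 and Col1a1 at 9.29 but Thy1, Lum and Tcf21 Inactive, and of 6 neuron genes 3 were active, with Tubb3 highest at 6.01.

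Nearly all sarcomere genes carried engaged polymerase, over a range of more than 3 orders of magnitude. The authors' call was active for 58 of the 63 entries (92.1%), where 70.2% of all entries of the table were active. By gene, 44 of 49 (89.8%) had an active entry, against 68.7% of all gene symbols. The 5 genes without one were Myl2 and Myl3 (the ventricular and slow muscle light chains), Mybpc3 (cardiac myosin binding protein C), Myot (myotilin) and Myoz3 (myozenin 3, also called calsarcin 3). With at least 0.1 RPKmM as the limit, 47 entries (74.6%) remained, against 57.2% of all entries.

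By entry, their median was close to that of all active entries and their upper quartile was higher. The 58 active entries ranged from 0.01 to 54.86 RPKmM with a median of 0.855 and quartiles of 0.175 and 5.255, and all 16957 active entries had a median of 0.87 and quartiles of 0.22 and 1.99. Of the 58 entries, 29 lay above the median of all active entries. At 1 RPKmM or above there were 28 of 63 entries (44.4%), beside 32.3% of all entries, but 11 of the 28 were entries of 3 tropomyosin genes. By gene the share was 16 of 49 (32.7%), beside 31.6% of all gene symbols, which is close to the background. With the most active entry of each gene, the median of the 44 active genes was 0.58, below the 0.87 of all 13822 active symbols, and the quartiles were 0.0975 and 1.995, beside 0.22 and 2. The higher upper quartile was thus seen only where each entry counted. At 10 or above there were 5 entries (7.94%) of the 4 genes Tnnc1, Tpm1, Ttn and Tpm2, beside 2.03% of all entries, and by gene 8.16% beside 1.99%. At the other end, 11 entries (17.5% of all 63) were active but below 0.1, beside 13% of the whole table.

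**Figure D1:**
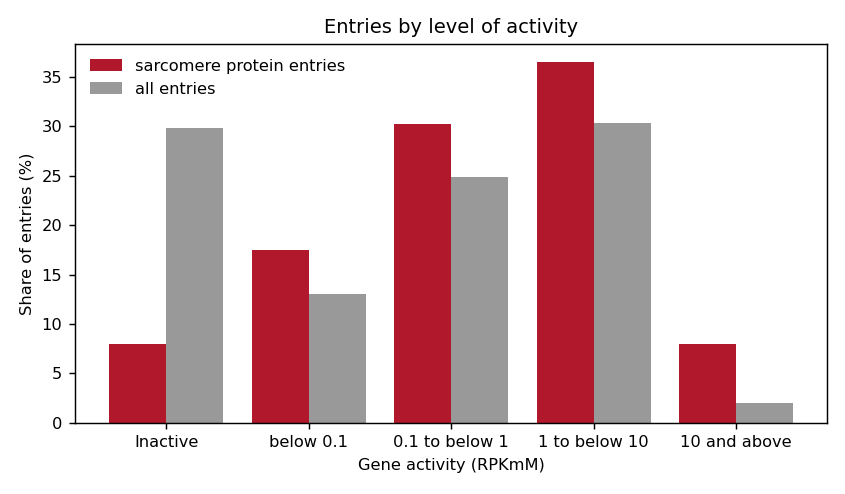
Share of entries (y axis, %) in 5 classes of gene activity (x axis, RPKmM) for the 63 sarcomere protein entries (red) and all 24165 entries of the table (grey). The sarcomere entries have 7.94% Inactive against 29.8% of all entries, and 7.94% at 10 or above against 2.03%.

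Levels differed between places in the sarcomere. Actins and tropomyosins were all above 1 RPKmM. Troponins and Z-disc genes straddled it. Most myosin heavy chains, the nebulin and pointed-end proteins, the M-band proteins other than titin, the myosin binding proteins and the Xin repeat proteins lay below it.

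**Figure D2:**
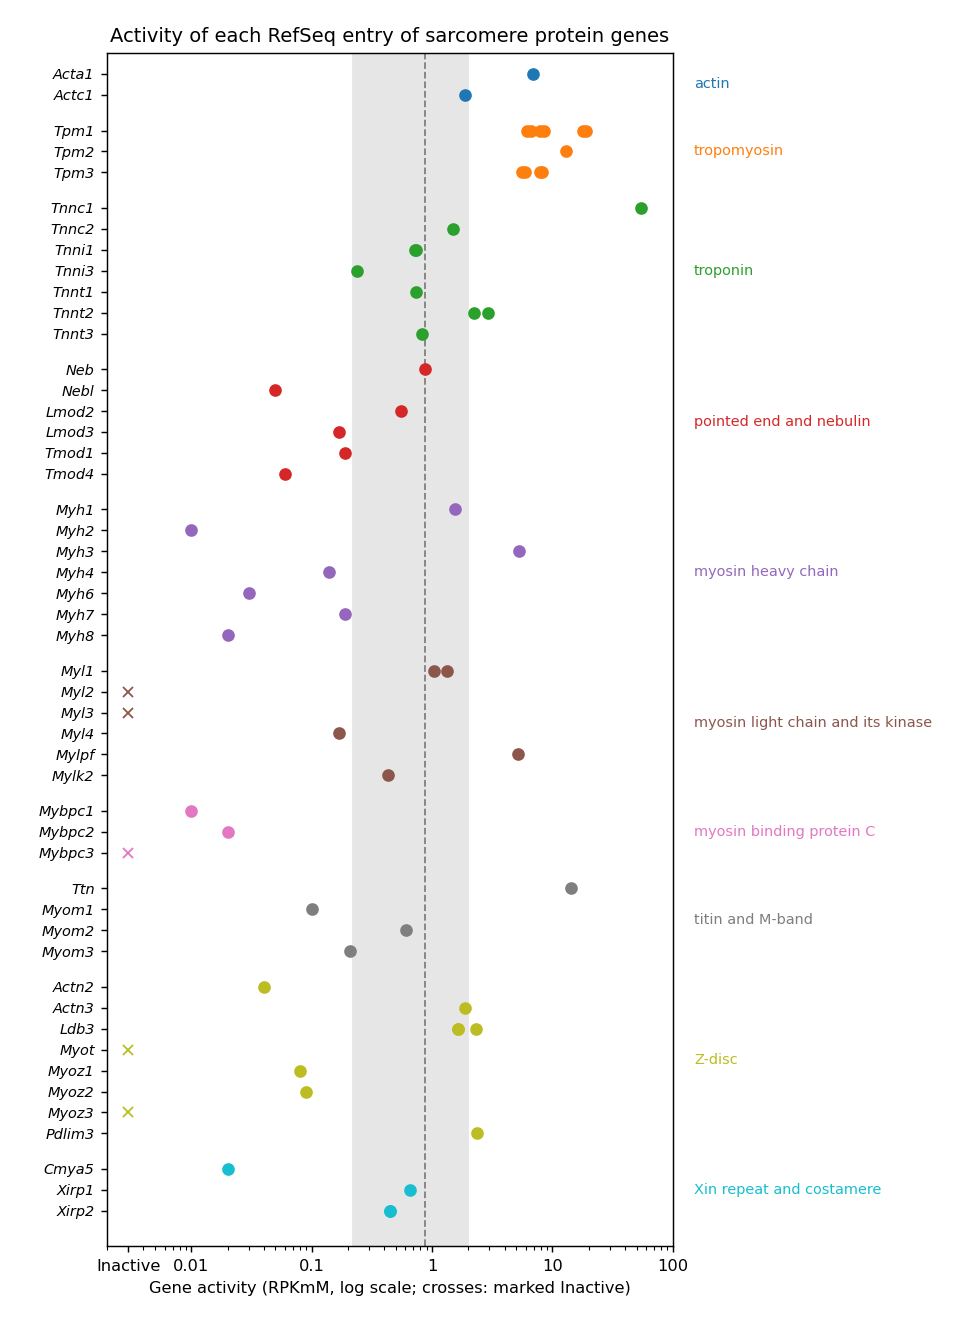
Gene activity (x axis, RPKmM on a log scale) of each RefSeq entry, 1 row per gene, coloured by place in the sarcomere. Dots are active entries, crosses are Inactive, and the dashed line and grey band are the median (0.87) and the quartiles (0.22 and 1.99) of all active entries. Tropomyosin entries all lie to the right of the band and the 3 myosin binding protein genes all lie to the left of it.

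The letters just before the start site are shown for the genes on which the following values turn: Tnnc1 and Ttn, which are among the 4 most active genes, Acta1, the skeletal actin, and Myh3, Myh2 and Myh8, which lie in a single cluster and have very different activities. Sequences are those of RefSeq promoters (build GRCm38.p6), 250 bases before the start, and each was found as an exact match once on its chromosome in mm9, the build of the reads: Tnnc1 at chr14:32021248-32021497 on the + strand, Ttn at chr2:76820605-76820854 on the - strand, Acta1 at chr8:126418676-126418925 on the - strand, Myh3 at chr11:66891552-66891801, Myh2 at chr11:66984279-66984528 and Myh8 at chr11:67090376-67090625, all 3 on the + strand. None of these windows overlaps an annotated exon. The windows of Tpm1, Tpm2, Myh1 and Myh4 do and are not printed. Capitals mark matches, on either strand, to CAGCTG and CACCTG (both forms of the E-box CANNTG that myogenic regulators bind), TATAAA (the TATA box), CATTCC (the MCAT element of TEAD factors), and the MEF2 site and the CArG box of serum response factor, which are searched with wildcards.
Tnnc1: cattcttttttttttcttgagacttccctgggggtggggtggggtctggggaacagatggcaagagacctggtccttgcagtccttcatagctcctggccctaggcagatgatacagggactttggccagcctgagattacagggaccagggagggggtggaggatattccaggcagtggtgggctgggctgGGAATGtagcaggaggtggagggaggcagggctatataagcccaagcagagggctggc
Ttn: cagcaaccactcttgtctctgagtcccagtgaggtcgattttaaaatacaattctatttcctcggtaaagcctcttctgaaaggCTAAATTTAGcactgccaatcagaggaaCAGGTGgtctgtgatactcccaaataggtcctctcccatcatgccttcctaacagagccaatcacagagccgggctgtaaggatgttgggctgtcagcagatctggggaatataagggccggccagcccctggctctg
Acta1: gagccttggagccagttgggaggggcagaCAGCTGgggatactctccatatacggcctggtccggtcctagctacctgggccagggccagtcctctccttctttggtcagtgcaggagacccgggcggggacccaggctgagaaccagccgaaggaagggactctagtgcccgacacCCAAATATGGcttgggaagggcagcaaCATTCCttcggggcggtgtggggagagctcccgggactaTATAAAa
Myh3: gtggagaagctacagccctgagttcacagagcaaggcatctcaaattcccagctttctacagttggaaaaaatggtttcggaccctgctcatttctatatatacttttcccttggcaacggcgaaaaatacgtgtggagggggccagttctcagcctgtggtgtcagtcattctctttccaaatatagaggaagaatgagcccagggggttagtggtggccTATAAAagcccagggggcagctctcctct
Myh2: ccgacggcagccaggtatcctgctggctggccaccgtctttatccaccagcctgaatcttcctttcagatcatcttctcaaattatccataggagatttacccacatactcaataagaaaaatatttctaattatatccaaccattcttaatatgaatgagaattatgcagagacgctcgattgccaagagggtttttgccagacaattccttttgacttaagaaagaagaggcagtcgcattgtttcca
Myh8: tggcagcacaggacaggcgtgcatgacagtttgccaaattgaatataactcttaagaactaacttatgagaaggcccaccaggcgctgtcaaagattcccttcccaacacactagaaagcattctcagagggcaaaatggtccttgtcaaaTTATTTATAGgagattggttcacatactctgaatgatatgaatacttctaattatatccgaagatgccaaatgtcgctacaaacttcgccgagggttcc

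Actins form the core of the thin filament. Acta1, the actin of adult skeletal muscle (chr8:126415669-126418651, mm9, - strand), had an activity of 6.85 RPKmM, above 95.2% of active entries. Actc1, the actin of heart and of developing skeletal muscle, had 1.89, so that Acta1 was 3.62 times Actc1. The printed Acta1 promoter holds a CArG box at bases 73 to 64 before the start, an MCAT element at 46 to 41, a CAGCTG E-box at 221 to 216 and a TATA box at 7 to 2, counted from the RefSeq start, which is 24 bases upstream of the start annotated in mm9. Actb, the actin of the general cytoskeleton, was 7.87 times Acta1 and 28.5 times Actc1.

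Tropomyosins, the coiled coils that lie along actin, were all highly active. All 11 entries of Tpm1, Tpm2 and Tpm3 lay between 5.63 and 19.12 RPKmM, with a median of 7.9. These genes also make tropomyosins of non-muscle cells from alternative starts and exons. Tpm2 had 1 entry at 12.9. The 4 entries of Tpm3 had 5.63, 5.91, 7.87 and 8.19.

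The 6 entries of Tpm1 fell into 2 levels. NM_001164249 had 18.04 and NM_001164252 had 19.12. The others had 6.19, 6.64, 7.9 and 8.57, so that the highest was 3.09 times the lowest. Of the 7 genes with several entries, Tpm1 was the only one whose entries differed by more than 1.5 times. The table does not give the start each entry uses, and the gene body counted differs between entries that start or end at different places. Entries of Tpm3 spanned 1.46-fold, those of Ldb3 1.42-fold, Tnnt2 1.31-fold, Myl1 1.27-fold and Tnni1 1.01-fold, and both entries of Xirp2 had 0.45. No gene had an active entry beside an Inactive one.

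The troponin complex has 3 subunits, troponin C that binds calcium, troponin I that inhibits, and troponin T that binds tropomyosin. Tnnc1, troponin C of slow and cardiac muscle (chr14:32021498-32024915, mm9, + strand), was the most active gene of all those described, at 54.86 RPKmM, with 55 entries of 48 gene symbols above it in the whole table. Its activity was 1.02 times that of Actb. Tnnc2, troponin C of fast muscle, had 1.48, which is 37.1 times less. The 250 bases before Tnnc1 hold 1 MCAT element, at 58 to 53 before the start, and 2 E-boxes of the general form CANNTG. The exact letters TATAAA are absent, but the similar letters tatataag lie near the start. Such looser forms of the TATA box were not searched.

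No other troponin came near Tnnc1. Tnnt2, the cardiac troponin T that embryonic skeletal muscle also makes, had 2.22 and 2.91, and Tnnc1 was 18.9 times its higher entry. Tnnt3 (fast) had 0.83 and Tnnt1 (slow) 0.73. Tnni1, slow troponin I, had 0.72 and 0.73, and Tnni3, cardiac troponin I, had 0.24. Among the genes with an entry, the most active subunits of the 3 kinds were slow and cardiac troponin C at 54.86, cardiac troponin T at 2.91 and slow troponin I at 0.73. Fast troponin I, Tnni2, has no entry and could not be ranked.

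Tnnc1 lies close to genes of other activity. Nisch runs on the opposite strand and its annotated start is 1.485 kb from that of Tnnc1. Nisch had 5.14, so Tnnc1 was 10.7 times higher. Sema3g, downstream on the same strand, had 0.03, and Stab1, beyond Nisch, had 0.01.

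Troponin I and troponin T genes lie in pairs on the chromosome, and the members of a pair were compared with the genes around them. Tnni1 and Tnnt2 are 35.3 kb apart on the + strand of chromosome 1, and Lad1 between them had 0.01 while Tnni1 had 0.73 and Tnnt2 2.91. The genes outside this pair were Phlda3 at 7.21 and Pkp1 at 0.83. Tnni3 and Tnnt1 are 2.3 kb apart on the - strand of chromosome 7, with 0.24 and 0.73, between Syt5 at 0.01 and Ppp1r12c at 1.62. In the pair on the distal part of chromosome 7, Tnni2 has no entry, and Tnnt3 at 0.83 lies 3.968 kb from Lsp1, whose highest entry was 5.12. Within the first 2 pairs, the troponin T gene was the more active, 3.99 times for Tnnt2 over Tnni1 and 3.04 times for Tnnt1 over Tnni3.

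Nebulin and the proteins of the pointed end set or cap the length of thin filaments. All 6 genes were active and none reached 1, beside 68.7% and 31.6% of all gene symbols. With only 6 genes, these counts say little about the group. Neb (nebulin), a gene of 202.2 kb, had 0.88, close to the median of all active entries. Lmod2, a leiomodin of heart and skeletal muscle that promotes filament growth, had 0.55. Tmod1 had 0.19, Lmod3 0.17, Tmod4 0.06 and Nebl, the nebulette of heart, 0.05.

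Myosin heavy chains form the thick filament and carry the motor. All 7 genes were active, beside 68.7% of all gene symbols, and 3 of the 7 lay below 0.1. They had a median of 0.14 and a 528-fold range between the highest, Myh3 at 5.28 RPKmM, and the lowest, Myh2 at 0.01. Because values are rounded to 2 decimals, this ratio can lie anywhere from 351.7 to 1057. Myh3 encodes embryonic myosin (chr11:66891802-66915793, mm9, + strand). Myh1, the adult fast IIx myosin, had 1.56, and Myh3 was 3.38 times higher. Myh4 (fast IIb) had 0.14, Myh8 (perinatal) 0.02 and Myh2 (fast IIa) 0.01. On chromosome 14, the slow and cardiac Myh7 had 0.19 and the cardiac Myh6 had 0.03, 4.08 kb apart on the same strand.

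Myh3, Myh2, Myh1, Myh4 and Myh8 lie head to tail on the + strand of chromosome 11, and activity did not follow their order. Myh2 starts 68.7 kb past the end of Myh3 and was the least active. Myh1 starts 2.53 kb past the end of Myh2 and was 156 times higher, or 103.7 to 313 times within rounding. Myh4 starts 13.5 kb past the end of Myh1 and was 11.1 times lower than it, and Myh8 follows after 16.7 kb. Sco1, upstream of the cluster, had 0.4, 2310065F04Rik on the opposite strand between Myh3 and Myh2 had 0.02, and Myh13, the extraocular myosin at the far end, was Inactive. Coding exons of these myosins are alike in sequence, and the authors counted uniquely mapped reads only; what this took from each gene was not tested.

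**Figure D3:**
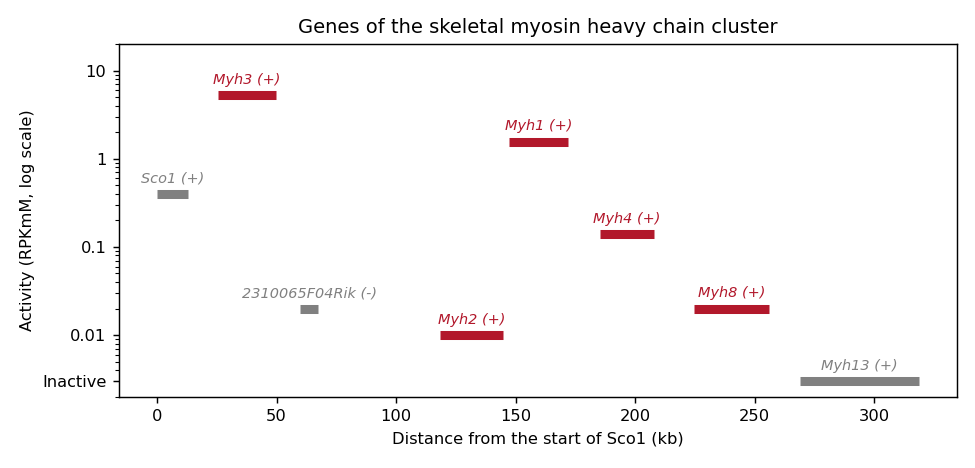
Activity (y axis, RPKmM on a log scale, with Inactive at the bottom) of each gene of the myosin heavy chain cluster on chromosome 11 against its place (x axis, kb from the start of Sco1). Each bar spans the annotated transcript, red for sarcomere genes described here and grey for others, with the strand in brackets. Myh3 at 5.28 and Myh1 at 1.56 stand above Myh4 at 0.14, Myh8 at 0.02 and Myh2 at 0.01.

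Of the cluster promoters printed above, Myh3 has a TATA box at 29 to 24 before its start. Myh8, 264 times less active than Myh3 (211 to 352.3 within rounding), has a MEF2 site at 99 to 90, and the letters TATAAA lie inside it, at 96 to 91. Myh2 has no match to any of the letters searched in these 250 bases.

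Myosin light chains stabilise the neck of the heavy chain, and their genes ranged from Inactive to 5.18. Mylpf, the fast regulatory light chain (chr7:134355122-134357812, mm9, + strand), had 5.18, close to the 5.28 of Myh3. Myl1, the fast essential light chains, had 1.04 and 1.32. Mylpf was 3.92 times the higher of these. Myl4, the essential light chain of atrium and embryonic muscle, had 0.17. Myl2 and Myl3, the slow and ventricular regulatory and essential chains, were Inactive. Mylk2, the kinase that phosphorylates the regulatory chain in skeletal muscle, had 0.43.

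The myosin binding proteins C, which bridge thick and thin filaments, were the least active class. Mybpc1 (slow) had 0.01, Mybpc2 (fast) 0.02, and Mybpc3 (cardiac) was Inactive.

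Titin joins the Z-disc to the M-band and was far more active than Neb, Actn2 and the myomesins. Ankrd1, a partner of titin described below, was more active than titin, at 38.34. Ttn (chr2:76542041-76820604, mm9, - strand) had 14.26 RPKmM, above 98.1% of active entries, over a transcript of 278.6 kb. Of the 1627 active genes of 100 kb or more in the annotation, it was number 4 by activity. Its activity was 16.2 times that of Neb and 356.5 times that of Actn2 (316.8 to 407.6 within rounding), its partner at the Z-disc. The M-band proteins that bind its other end, the myomesins, had 0.61 (Myom2), 0.21 (Myom3) and 0.1 (Myom1). The 250 bases before the start of Ttn hold a MEF2 site at 166 to 157 and the E-box CAGGTG at 138 to 133. The exact letters TATAAA are absent, and looser forms were not searched.

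Read density does not say how many reads a gene takes, so the activity of each gene's most active entry was multiplied by the length of the gene body, from 1 kb after the start to the end of the longest annotated coding transcript, or of the longest transcript for genes without a coding one. The product is in RPM, the reads in the gene body at the scaling that RPKmM uses, and assumes that every base is mappable and that the entry spans that transcript. A length was found for 12463 of 13822 active symbols (90.2%) and for all 44 active sarcomere genes. Ttn had 3958 RPM, number 7 of the 12463 genes, after Ahnak, Neat1, Malat1, Ext1, Fn1 and 2010111I01Rik. It held 68.3% of the 5799 RPM of all 44 sarcomere genes together. Tnnc1, though 3.85 times as active as Ttn, had 132.7 RPM, which is 29.8 times less, since its gene body is 2.418 kb. After Ttn came Tpm1 with 493.6, Tpm3 with 223.2, Neb with 177 and Ldb3 with 140.9. This order depends on the entry used: with the least active entry, an alternative chosen after seeing the data, Tpm1 had 159.8 and Tpm3 153.4, both below Neb, and the share of Ttn was 74.1%. The 44 genes made up 0.62% of the sum over all genes, and Ttn alone 0.423%.

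Length and activity were not tied in a simple way. The 16 genes at 1 RPKmM or above had a median length of 18.8 kb and the 28 active genes below 1 had 25.6 kb. Of the 12 active genes of 50 kb or more, only Ttn and Ldb3 (16.7%) were at 1 or above, beside 45.7% of all 3424 active genes of that length. The rank correlation of length and activity over the 44 genes was -0.32 (Spearman's rho, as a description across genes, which are not independent), and over all 12463 genes it was -0.03.

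**Figure D4:**
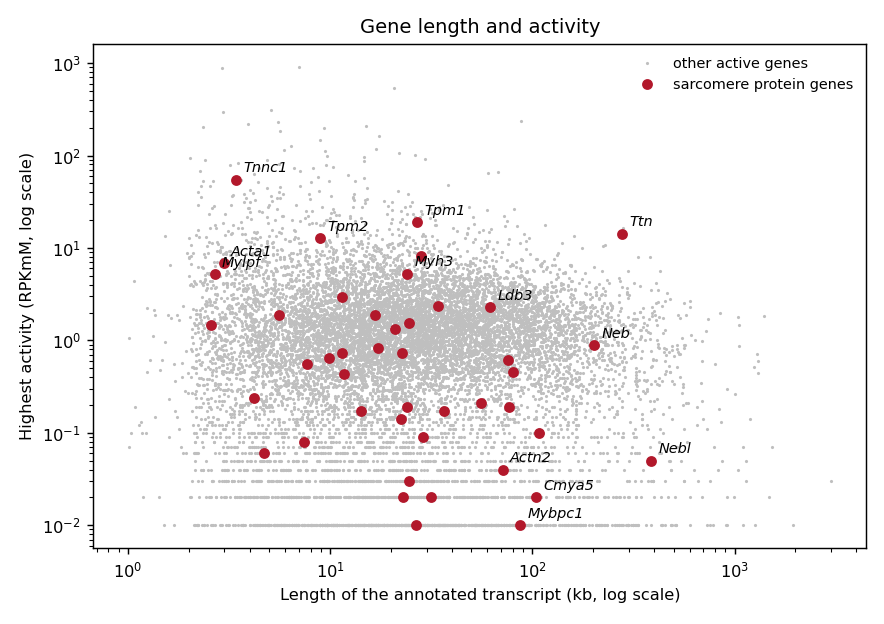
Highest activity of each gene (y axis, RPKmM, log scale) against the length of its longest annotated transcript, a coding one where there is any (x axis, kb, log scale), for the 44 active sarcomere genes (red, some named) and the other active genes with a length (grey, those listed at 0 not drawn). Ttn, at 278.6 kb and 14.26 RPKmM, stands far above Neb and Nebl, the other very long genes of the sarcomere.

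Z-disc genes covered a 59.5-fold range. Pdlim3 (the actinin-associated LIM protein) had 2.38 and Ldb3 (cypher, also called ZASP) had 1.63, 1.64 and 2.31. Actn3, the alpha-actinin of fast fibres, had 1.88, and Actn2, the alpha-actinin of all striated muscle, had 0.04, so that Actn3 was 47.0 times higher (41.67 to 53.86 within rounding). The myozenins Myoz2 and Myoz1, which tether calcineurin to the Z-disc, had 0.09 and 0.08, and Myoz3 and Myot were Inactive. Beside Myoz1, Synpo2l, another actin-binding protein of the Z-disc, had 18.62 and 10.66. It is 2.405 kb upstream on the same strand and its higher entry was 232.8 times Myoz1. This neighbour was singled out after its value was seen.

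The actin-binding Xin repeat proteins of intercalated discs and myotendinous junctions were moderately active, Xirp1 at 0.65 and Xirp2 at 0.45 in both entries. Cmya5 (myospryn), a large costameric protein, had 0.02.

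Grouped by the muscle type they are named for, the genes showed no type that was silent as a whole. Of the 50 genes, 23 are not named for a type and stay out of this comparison, and the shares of all gene symbols to set beside the counts are 68.7% active and 31.6% at 1 or above. Of the 11 fast skeletal genes listed, 10 had an entry, all 10 were active and 5 reached 1, with a median of 1.075 for the most active entry per gene. Of the 8 slow or slow and cardiac genes, 6 were active and only Tnnc1 reached 1, with a median of 0.46. Of the 5 cardiac genes, 4 were active and Tnnt2 and Actc1 reached 1. All 3 developmental genes were active, and Myh3 alone reached 1, while Myl4 had 0.17 and Myh8 0.02. Within each type the genes ranged over 97-fold or more, which is 5486-fold in the slow and cardiac class.

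Sarcomere proteins have relatives, many of them in the cytoskeleton of non-muscle cells. The genes were compared with relatives outside the gene list in 21 pairs of the same family, by the most active entry of each. The relative was the more active in 15 pairs, and in 14 of these by more than 1.5 times or with the sarcomere gene Inactive. This count rests on the relative chosen for each pair, which in several families was the most active of those listed. Less active relatives turn the order: Myl12b at 2.32 and Myl9 at 3.72 lay below Mylpf, Pdlim1 at 1.26 lay below Pdlim3 and Ldb3, Tmod2 at 0.01 lay below Tmod1 and Tmod4, and Myh10 at 1.97 and Myh14 at 0.02 lay below Myh3. Myh9, the main non-muscle heavy chain, had 26.59, which is 5.04 times Myh3. Actn1 had 11.97, which is 6.37 times Actn3 and 299.2 times Actn2. Myl6, the non-muscle essential light chain, had 8.8, which is 6.67 times Myl1 and 51.8 times Myl4. Myl12a, a non-muscle regulatory chain, had 5.56 and differed little from Mylpf, at 1.07 times. Lasp1 was 57.0 times Nebl, and Tmod3 at 0.83 was 4.37 times Tmod1 and 13.8 times Tmod4. Pdlim7 at 9.29 was 3.9 times Pdlim3 and 4.02 times Ldb3.

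The sarcomere gene was the more active in 6 pairs, all by more than 1.5 times. Tpm1, Tpm2 and Tpm3 were 4.38, 2.95 and 1.87 times Tpm4, which had 4.37. As said above, these genes also make tropomyosins of non-muscle cells, and their values do not separate the products. Mylk2 was 4.78 times Mylk, which had 0.09. Lmod2 and Lmod3 were 13.8 and 4.25 times Lmod1, the smooth muscle leiomodin, which had 0.04. In the last 3 of these pairs, both genes lay below the median of all active entries.

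**Figure D5:**
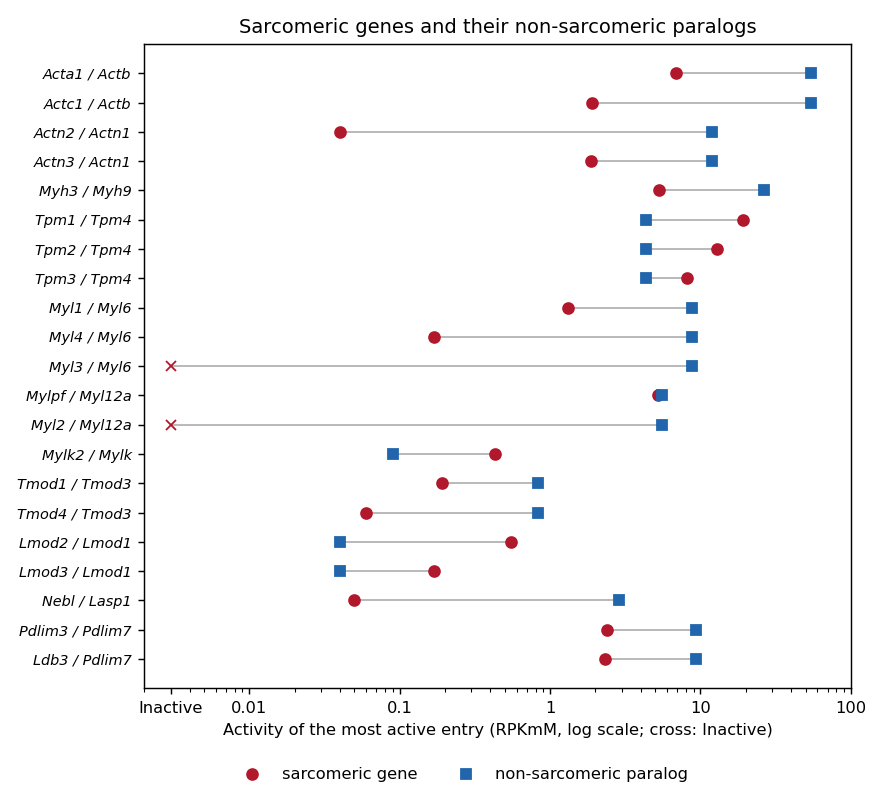
Activity of the most active entry (x axis, RPKmM on a log scale), 1 pair per row. Red dots are the sarcomere genes (crosses where Inactive) and blue squares their relatives outside the gene list. The blue square lies to the right in 15 of 21 rows, and the tropomyosins, Mylk2, Lmod2 and Lmod3 are the 6 exceptions.

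Another list of genes that work in or beside the sarcomere was read the same way. Of 29 genes listed, 28 had an entry, 23 were active and 11 reached 1, where 68.7% of all gene symbols were active and 31.6% reached 1. Ankrd1, a stress-responsive partner of titin, had 38.34, Synpo2l 18.62 and Flnc (filamin C, a Z-disc cross-linker) 14.06. Mybph, a relative of the myosin binding proteins C, had 5.59, where Mybpc1 and Mybpc2 had 0.01 and 0.02. Myh13, Myh15, Myl7, Mybphl and Smtnl1 were Inactive, and Tcap had no entry. The median of its active entries was 0.89, beside 0.855 for the sarcomere entries, and with the most active entry per gene it was 0.89 beside 0.58.

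Motifs were counted in each whole RefSeq promoter, 250 bases before the start and 50 after it. A promoter was found for 39 of the 49 genes, and 15199 gene symbols of the table served as the background. None was found for Actn3, Mylk2, Tnnt3, Neb, Myom2, Myot, Myoz1, Myoz3, Lmod3 and Xirp1. The MEF2 site was present in 8 of 39 (20.5%) and in 2.56% of all genes. These were Myh1, Myh4, Myh8, Ttn, Mybpc3, Myom3, Myoz2 and Xirp2. The CArG box was present in 7 of 39 (17.9%), beside 1.67%, in Acta1, Actc1, Myh4, Myl3, Nebl, Myom1 and Ldb3. MCAT letters were in 15 of 39 (38.5%) beside 15.6%, TATAAA in 11 (28.2%) beside 11.7%, CAGCTG in 14 (35.9%) beside 19.1%, CACCTG in 13 (33.3%) beside 23%, and any E-box in 34 (87.2%) beside 71.6%.

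The motifs were present in active and in Inactive genes. Of the 15 with a promoter and an activity of 1 or above, 2 had a MEF2 site and 3 a CArG box. Of the 24 that were below 1 or Inactive, 6 had a MEF2 site and 4 a CArG box. The MEF2 site was thus found in Ttn at 14.26 and in Mybpc3, which was Inactive. MCAT was in 8 of the 15 and 7 of the 24, and TATAAA in 5 and 6. A match describes these letters and not binding.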

How the data were processed

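GRO-seq came from 2 replicate libraries of C2C12 myoblasts, read here as 1 group with 1 pooled value. Per the labels and the study's methods, reads were handled with CASAVA 1.8 and mapped to mm9 with Bowtie2 (version not given in the sources used here), reads that failed were trimmed and mapped again, unique reads were kept, reads at rRNA and tRNA repeats were removed, and the libraries were pooled. The authors deposited activity as RPKM over mappable bases (RPKmM) for genes of at least 2 kb on chromosomes 1 to 19 and X, rounded to 2 decimals, or the word Inactive. Pooling hides the spread between libraries, unique mapping can lose reads in exons that paralogs share, and the first 1 kb of a gene does not count. The table does not hold the depth. The study states a total for the pooled libraries, which was not used here, so no read number or counting interval was given.

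Entries were matched by gene symbol. Each result is a count, a share, a median, a ratio of highest entries or a mid-rank percentile among active entries. Counts of active genes are read against the share over all entries or all gene symbols. Lengths and positions came from GENCODE vM1 (mm9), by the longest coding transcript of a symbol, or the longest of any kind where none was coding. Promoters came from RefSeq (GRCm38.p6) and were matched to mm9 by sequence. The rule for naming was every sarcomere gene, its paralogs, its neighbours in a cluster, and the 3 most active and the Inactive genes of a list, with others named as background on the cells. 1 further gene of the marker lists is not reported here. The printed promoters are 2 of the 4 most active genes, since the windows of Tpm1 and Tpm2 run into annotated exons, with Acta1 and 3 cluster genes added. The genes, lists, pairs and promoters were chosen with earlier results of these data known. Calculations used Python 3.11.15, pandas 2.3.3, numpy 2.4.6, scipy 1.17.1 and matplotlib 3.10.9, and were tested on simulated data. Alternatives were 1 entry per gene, limits of 0.01 or 0.1, Inactive as 0, genes of 10 kb or more, leaving out genes that share sequence, and geometric means with pseudocounts of 0.01 and 0.001.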

Additional observations from a re-analysis of the deposited data

How the results depend on the processing

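Of 106 alternative values, 90 stayed within 1.5 times of the reported value (or, for a share, within its 95% exact binomial interval) and 16 moved. That interval takes entries as independent, which several entries of 1 gene are not. The share at 1 or above, 44.4% of entries, counted as stayed. It became 32.7% with 1 entry per gene, close to the 31.6% of all gene symbols. The share of active entries, 92.1%, became 74.6% with at least 0.1 RPKmM as the call, and the median of active entries, 0.855, became 1.63 under the same call, which leaves out the low entries by construction. The 28 entries at 1 or above became 16 with the most active entry per gene and 16 with the least active, since several entries of a gene then count once. The ratio of the median of sarcomere entries to that of all entries, 0.983 among active entries, became 2.355 with Inactive taken as 0, 1.36 and 1.39 by geometric means with pseudocounts of 0.01 and 0.001, 1.37 with at least 0.1 as the call, and 0.667 with the most active entry per gene, so its side of 1 depends on the summary. The other 11 that moved were medians or numbers of entries of single classes with 1 entry per gene: Z-disc 0.985 or 0.86 in place of 1.635, cardiac 1.065 in place of 1.89, slow and cardiac 0.46 or 0.455 in place of 0.72, and tropomyosin 12.9 in place of 7.9, with 3 entries in place of 11, and 23 in place of 37 other sarcomere-associated entries. The member was higher in 6 of 21 pairs also by the least active entries. By an alternative chosen after seeing the data, the least active entry of each gene, the reads in the gene body of Tpm1 moved from 493.6 to 159.8 RPM.

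No paired analysis was possible because the 2 replicates share a pooled column, and no replicate was left out on the same ground. Ratios against values of 0.01 to 0.05 are limited by rounding, and the reads behind them were not computed. Lengths and mappability of single entries were not used.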

Other observations

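Genes that fold, assemble or turn over sarcomere proteins were mostly active at modest levels. Of 20 listed, 19 were active and 9 reached 1 RPKmM, where 68.7% of all gene symbols were active and 31.6% reached 1. The median was 1.34 over active entries, of which 4 are of Fhl1, and 0.63 with the most active entry per gene, below the 0.87 of all active symbols. The highest were Hsp90aa1 (a chaperone) at 6.1, Fhl1 (a LIM protein of muscle) at 4.31 and Mkl1 (a coactivator of serum response factor) at 2.58, with Srf itself at 1.42. The muscle-restricted myosin chaperone Unc45b had 0.07 and the methyltransferase Smyd1 0.2. The ubiquitin ligase genes Fbxo32 (atrogin-1) and Trim63 (MuRF1) had 1 and 0.03, and Fbxo40 was Inactive.

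Genes on a smooth muscle list were all marked active, 11 of 11, beside 68.7% of all gene symbols. At 1 or above were 5 of the 11, beside 31.6% of all gene symbols. Their median was 0.44, below the 0.87 of all active symbols. Acta2 (smooth muscle alpha-actin) had 11.89, above the 6.85 of Acta1, Tagln (transgelin) had 8.83, Cnn2 (calponin 2) 7.42, Myl9 3.72 and Smtn 3.11. Lower were Cnn1 (calponin 1) at 0.44, Actg2 at 0.34, Mylk at 0.09 and Lmod1 at 0.04. Myh11, the smooth muscle heavy chain, was listed as active at 0, a value rounded down, and Synm had 0.01.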
